A study of Mus musculus with 24 samples.

Results

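Damage-associated microglia (DAM) and lipid-laden phagocytes were followed through 10 of their characteristic genes: Spp1, Gpnmb, Lgals3, Itgax, Clec7a, Cst7, Cd63, Axl, Cd68 and Fabp5. The genes were chosen by name, and each was found by its symbol in the deposited table of 36333 genes. Expression was given in the unit that the methods name TPM, and that they say the CLC software calls CPM. Every library has the same sum. TPM divides reads by gene length and CPM does not, and the sum cannot tell which applies. Levels of different genes are therefore compared with this limit. All 10 genes belonged to the 17267 that averaged 0.5 TPM or more across the 24 libraries and were tested together.

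RNA was sequenced from the lesioned upper brain quadrant of 24 male mice 5 days after traumatic brain injury (5 dpi) or sham procedure, 1 library per mouse. The labels name the mice as C57BL6N and the tissue as cortex. The methods name the strain as C57BL/6JRj and describe a quadrant that also held striatum, dorsal hippocampus and thalamus. TBI was inflicted by controlled cortical impact, a piston that strikes the exposed cortex under anesthesia. Of the TBI mice, 5 each received vehicle, PLX3397, Anakinra or PLX3397+Anakinra, and 4 sham mice had neither a craniotomy nor an impact. PLX3397 inhibits CSF1R, the receptor that brain macrophages need to survive, and was fed in chow at 290 mg/kg from 90 min after injury. Anakinra is the recombinant antagonist of the interleukin-1 receptor IL1R1 and was injected subcutaneously at 100 mg/kg between 5 min and 72 h after injury. Mice were 12 to 16 weeks old by the labels, and the methods give a lower upper age. No group carried a genetic alteration. A letter B follows the animal number of the 5 vehicle mice and of no others. If it marks a batch, batch and vehicle treatment cannot be told apart.

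Microglia that meet dying cells, myelin debris or lipid switch off part of their resting programme and switch on genes for phagocytosis, lysosomal digestion and lipid handling. Macrophages that enter from blood or leave the brain borders can adopt much of the same programme. These genes are therefore read as a set linked to a phagocyte state and do not by themselves tell resident from infiltrating cells. Which cells expressed each gene was not tested. Cd63, Fabp5 and Axl already averaged 131, 232 and 30.7 TPM in sham mice. In bulk RNA, fewer cells of a type and less RNA per cell cannot be told apart.

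The genes lie on separate loci, with only Gpnmb and Clec7a on chromosome 6 and Itgax and Axl on chromosome 7. In GRCm38, Spp1 spans chr5:104435111-104441053, Gpnmb chr6:49036518-49058182, Clec7a chr6:129461591-129472785 and Cd68 chr11:69664213-69666170. The 250 bases before the annotated start (RefSeq, GRCm38.p6) were searched on both strands for GAGGAA, the core of the site of the myeloid factor PU.1, for TGANTCA, the AP-1 site, and for TCACGTG, the core of the CLEAR element of lysosomal genes. An entry was found for 9 of the 10 genes, all but Fabp5. GAGGAA stood before at least 1 start of 5 of these 9 genes (Spp1, Clec7a, Cd63, Axl and Cd68), and 25.9% of all 27025 genes with an entry hold it. TGANTCA stood before Itgax and Cd68, against 7.82% of all genes, and TCACGTG before 0 of the 9, against 3.58%. The 4 sequences below belong to the genes described in most detail, and each is printed 5′ to 3′ with the matches in capitals.
Spp1 (chr5:104434861-104435110, plus strand): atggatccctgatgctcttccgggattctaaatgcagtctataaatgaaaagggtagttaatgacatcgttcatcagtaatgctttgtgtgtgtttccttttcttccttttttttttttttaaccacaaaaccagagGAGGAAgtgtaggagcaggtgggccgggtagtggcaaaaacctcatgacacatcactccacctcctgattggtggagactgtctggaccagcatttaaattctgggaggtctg
Gpnmb (chr6:49036268-49036517, plus strand): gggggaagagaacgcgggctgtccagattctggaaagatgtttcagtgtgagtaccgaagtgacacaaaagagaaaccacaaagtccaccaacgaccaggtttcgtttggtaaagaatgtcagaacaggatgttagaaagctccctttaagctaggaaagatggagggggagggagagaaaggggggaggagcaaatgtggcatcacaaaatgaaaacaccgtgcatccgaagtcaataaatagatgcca
Clec7a (chr6:129472786-129473035, minus strand): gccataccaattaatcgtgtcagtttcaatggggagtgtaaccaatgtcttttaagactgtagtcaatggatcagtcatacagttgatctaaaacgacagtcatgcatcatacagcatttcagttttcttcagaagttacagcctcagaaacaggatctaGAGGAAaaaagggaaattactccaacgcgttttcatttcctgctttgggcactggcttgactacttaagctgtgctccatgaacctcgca
Cd68 (chr11:69666171-69666420, minus strand): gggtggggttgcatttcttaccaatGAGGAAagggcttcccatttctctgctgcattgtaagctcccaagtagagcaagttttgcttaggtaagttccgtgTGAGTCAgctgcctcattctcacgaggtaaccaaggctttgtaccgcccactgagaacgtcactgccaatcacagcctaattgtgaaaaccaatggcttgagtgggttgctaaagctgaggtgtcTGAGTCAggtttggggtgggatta
Spp1 and Clec7a each show GAGGAA once, starting at bases -113 and -90 from the start printed here. Both genes have a further annotated start that is not printed. That of Spp1 has none of the 3 motifs before it, and that of Clec7a has GAGGAA at -96. Cd68 shows it at -225, with TGAGTCA at -149 and -24. Gpnmb shows none of the 3 motifs in these letters, which says nothing on which factors act there.

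Read totals were not in the table, so depth is unknown and the precision of each value rests on the spread between mice. Between 22160 and 23249 genes were above 0 in each library. All 8 neuronal, all 8 astrocytic and all 8 oligodendrocytic marker genes were detected in every group. Vehicle mouse J17B had the lowest value of the 5 vehicle mice in all 10 genes, with a summed level of 3513 TPM against 5113 to 7396 TPM in the other 4. Its summed levels of 8 fibroblast genes (168 TPM, group range 168 to 876) and of 8 border macrophage genes (86 TPM, group range 86 to 171) were also the lowest of that group. PLX3397 mouse J02 was the highest of its group in 8 genes, and Anakinra mouse J14 the lowest of its group in 9.

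Which of these genes did injury induce under vehicle? All 10 rose in TBI vehicle mice over sham mice (10 of 10 called at adjusted p below 0.05, where 26.6% of all genes tested were called higher). A gene was called by limma on log2(TPM + 1), with the adjusted p taken over all 17267 genes. The values of vehicle and sham mice did not overlap in any of the 10, against 21.7% of all genes higher without overlap. The rises spanned from 1.95-fold for Axl to 212-fold for Spp1 in mean TPM. Leaving out any single mouse left 10 called.

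Spp1 encodes osteopontin, a secreted glycoprotein that binds integrins and CD44. It measured 4169, 1962, 4473, 5046 and 3037 TPM in the vehicle mice and 15.9, 16.8, 19.5 and 18.3 TPM in the sham mice. Every vehicle mouse was thus far above every sham mouse, although mouse J17B was the lowest of its group. The log2 fold change was 7.58 (standard error 0.22, adjusted p = 1.31e-18). Ranks between genes depend on whether the unit divides by gene length. By mean TPM, Spp1 ranked 8 among all genes in vehicle mice and 8397 in sham mice. It made up 55.9% to 68.2% of the summed TPM of the 10 genes in vehicle mice, and 3.67% to 4.77% in sham mice.

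Gpnmb encodes a transmembrane glycoprotein of lysosomes and the surface of phagocytes that have taken up lipid. It measured 332, 196, 322, 318 and 296 TPM in vehicle mice and 3.29, 3.93, 2.34 and 2.69 TPM in sham mice. On the log2 scale it rose by 6.17 (standard error 0.20, adjusted p = 9.08e-18), with no overlap. Lgals3, which encodes galectin-3, a lectin recruited to damaged lysosomes, was 142 ± 35.8 TPM (SD, n = 5) against 1.57 ± 0.397 TPM (SD, n = 4). Cst7, the gene of cystatin F, an inhibitor of lysosomal cathepsins, was 43.3 ± 7.63 TPM against 0.38 ± 0.172 TPM, 114-fold in mean TPM. These 4 genes had the largest ratios of the 10, from 90.4-fold upwards.

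Clec7a encodes dectin-1, a receptor for fungal glucans that marks activated microglia. It measured 31.1, 30.7, 41.6, 37.4 and 38.7 TPM in vehicle mice and 0.499, 0.476, 0.769 and 0.386 TPM in sham mice. The log2 fold change was 4.59 (standard error 0.16, adjusted p = 2e-17). Itgax, the integrin chain CD11c, had the lowest TPM of the 10. It was at 7.03 ± 1.85 TPM (SD, n = 5) in vehicle mice and 0.242 ± 0.0792 TPM (SD, n = 4) in sham mice. Its ratio of means was 29, whereas its log2 fold change of 2.66 is understated at such low values, because 1 TPM is added before taking logs. The rises of Clec7a and Cst7, which were also below 1 TPM in every sham mouse, are understated on the log2 scale for the same reason.

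Cd68, the lysosomal glycoprotein that is widely stained to show phagocytes, measured 302, 209, 308, 321 and 294 TPM in vehicle mice and 15.5, 17.8, 15.3 and 15.1 TPM in sham mice. It rose by 4.08 on the log2 scale (standard error 0.13, adjusted p = 5.44e-18). The other 3 genes were already well expressed without injury. Cd63, a tetraspanin of late endosomes and exosomes, rose from 131 ± 10.5 TPM to 574 ± 91 TPM. Fabp5, a carrier of fatty acids in the cytosol, rose from 232 ± 26 TPM to 623 ± 92.6 TPM. Axl, a receptor that recognises apoptotic cells through the bridging protein GAS6, rose from 30.7 ± 0.994 TPM to 59.8 ± 4.11 TPM (SD, n = 4 sham and 5 vehicle mice in each case).

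**Figure D1:**
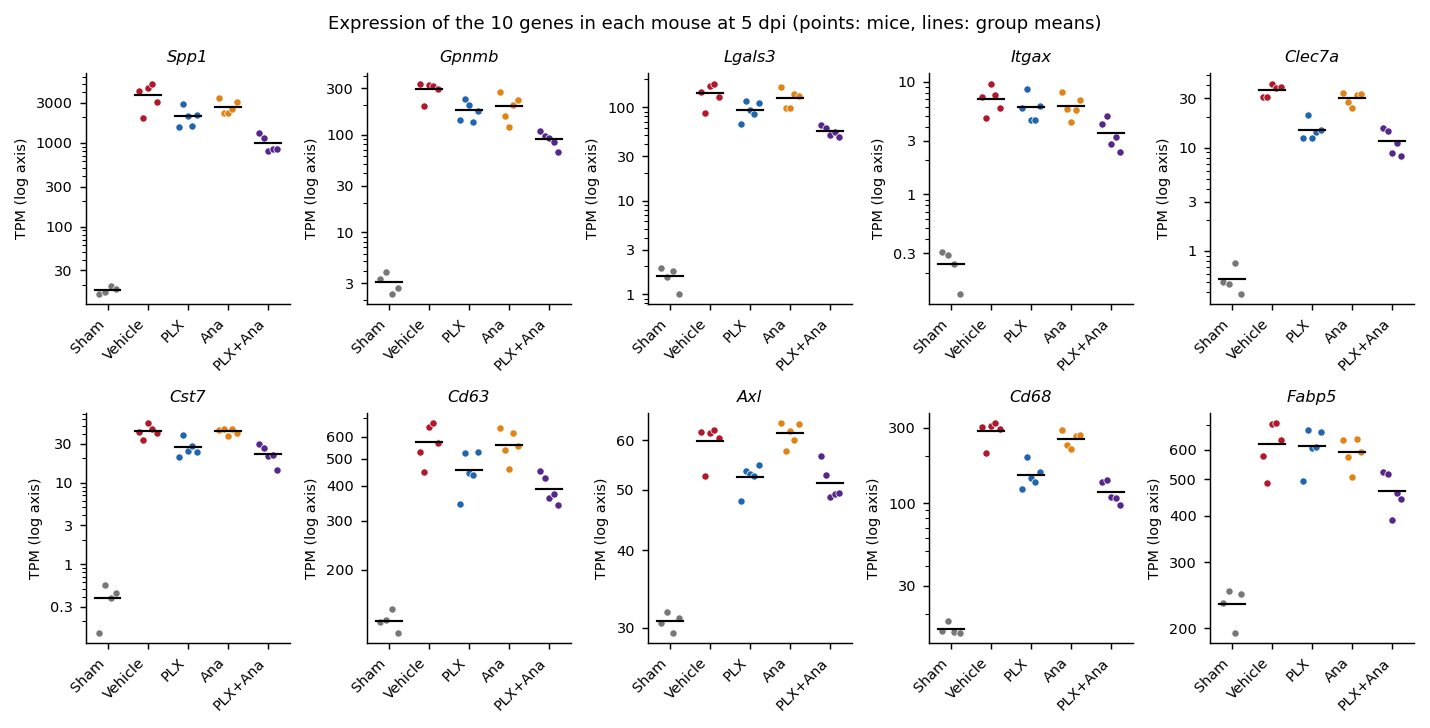
TPM of each of the 10 genes (log axis, own scale per panel) in the 4 sham mice and in the 5 mice each of the TBI groups vehicle, PLX3397 (PLX), Anakinra (Ana) and PLX3397+Anakinra (PLX+Ana), with points for mice and lines for group means. Sham mice lie below every TBI mouse in all 10 panels, and in 8 of the panels the means fall in the order vehicle, Anakinra, PLX3397, PLX3397+Anakinra.

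The same 10 genes were also higher than in sham mice in each drug group (10 of 10 called in every comparison). The shares of all genes called higher were 22.7% with PLX3397, 25.1% with Anakinra and 20.7% with PLX3397+Anakinra. Even in the group with the lowest levels, PLX3397+Anakinra, the mean of Spp1 was 56.1-fold and that of Cst7 60.1-fold above sham. Fabp5 and Axl stood 2.01-fold and 1.67-fold above sham there. The 4 comparisons share the same 4 sham mice.

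To ask what PLX3397 alone did, it was compared with vehicle. PLX3397 lowered 7 of the 10 genes (6.66% of all genes were called lower): Clec7a, Cd68, Spp1, Gpnmb, Cst7, Lgals3 and Axl. The means of the other 3, Itgax, Cd63 and Fabp5, were also below vehicle but did not pass. The median log2 fold change of the 10 was -0.62, beside 0.01 over all genes tested. The values of PLX3397 and vehicle mice did not overlap in 2 genes, Clec7a and Cd68 (4.91% of all genes were lower without overlap).

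Clec7a fell most. It measured 12.4, 20.7, 12.5, 14.2 and 14.7 TPM with PLX3397, so that even mouse J02, the highest, was below the lowest vehicle mouse at 30.7 TPM. The log2 fold change was -1.23 (standard error 0.15, adjusted p = 1.75e-06). Cd68 measured 123, 196, 144, 136 and 158 TPM with PLX3397, all below the lowest vehicle mouse at 209 TPM. It fell by 0.92 on the log2 scale (standard error 0.12, adjusted p = 6.13e-06). These 2 genes kept 40.6% ± 9.67 and 50% ± 10.3 (SD, n = 5) of the rise that vehicle mice showed over sham mice.

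Spp1 measured 1546, 2911, 2082, 1594 and 2144 TPM with PLX3397. The PLX3397 mice at 2911, 2144 and 2082 TPM lay above vehicle mouse J17B at 1962 TPM, so the groups overlapped through that mouse. The log2 fold change was -0.83 (standard error 0.20, adjusted p = 0.00908). Gpnmb measured 140.2, 230.0, 203, 136 and 175 TPM, with overlap again through mouse J17B at 196 TPM, and its log2 fold change was -0.73 (standard error 0.19, adjusted p = 0.0132). Cst7 fell by 0.67 on the log2 scale, to 27.2 ± 6.96 TPM (SD, n = 5), with an adjusted p of 0.00612.

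Lgals3 and Axl were at the edge of the threshold. Lgals3 fell by 0.57 on the log2 scale (adjusted p = 0.0367), to 94.3 ± 20.1 TPM with PLX3397 (SD, n = 5). It lost the call when vehicle mouse J01B, J18B, J19B or J20B or PLX3397 mouse J01, J12 or J19 was left out, with adjusted p between 0.0547 and 0.125. It also lost it with 0.1 TPM added before logs (0.0555), without the filter on low values (0.073), without the variance trend (0.0528) and with robust moderation (0.0543). Axl fell by 0.19 on the log2 scale (adjusted p = 0.0175), to 52.3 ± 2.6 TPM (SD, n = 5). It lost the call without vehicle mouse J18B (adjusted p = 0.0528) or J19B (adjusted p = 0.0531) or PLX3397 mouse J01 (adjusted p = 0.0644). With only the vehicle and PLX3397 mice in the model, Spp1, Lgals3 and Axl did not pass (adjusted p = 0.0661, 0.103 and 0.0721).

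The 3 genes that did not pass differed in how closely they were bounded. Fabp5 measured 496, 678, 608, 611 and 671 TPM with PLX3397 and 577, 487, 704, 707 and 638 TPM with vehicle. The groups lay on top of each other, with a 95% interval of the log2 fold change from -0.23 to 0.20. Itgax had a log2 fold change of -0.21 with an interval from -0.56 to 0.15. Cd63, at -0.33 (interval -0.57 to -0.10, adjusted p = 0.0684), passed when vehicle mouse J17B (adjusted p = 0.0146), PLX3397 mouse J02 (adjusted p = 0.0418) or PLX3397 mouse J20 (adjusted p = 0.0413) was left out.

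To ask what IL1R1 blockade alone did, Anakinra was compared with vehicle. Of the 10 genes 0 were called by limma (0.0463% of all genes were called lower and 0.0695% higher), 1 had an unadjusted p below 0.05 (6.94% of all genes lower), and the values of the groups overlapped in all 10. The gene with the unadjusted p below 0.05 was Gpnmb, which is named after its values were seen. It measured 276, 156, 121, 203 and 225 TPM with Anakinra, with a log2 difference of -0.61 (standard error 0.19, unadjusted p = 0.0037, adjusted p = 0.166). The exact two-sided permutation test over the mice gave p = 0.0397 for it, the only p below 0.05 among the 10 genes in this comparison.

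Spp1 with Anakinra measured 3398, 2276, 2234, 2504 and 3059.6 TPM, within the span of the vehicle mice. Its log2 fold change was -0.42, with a 95% interval from -0.84 to 0.00. Clec7a measured 33.9, 27.8, 24.1, 32.2 and 32.7 TPM and Cd68 289, 235, 220.0, 268 and 269 TPM. Mouse J14 was the lowest in both, and the groups overlapped. Their log2 differences were -0.25 (95% interval -0.55 to 0.06) and -0.15 (-0.40 to 0.10). The narrowest intervals were those of Axl, from -0.06 to 0.15, and Fabp5, from -0.28 to 0.15. Cst7 had a log2 fold change of -0.01 with an interval from -0.33 to 0.32. The 10 genes kept between 66.6% (Gpnmb) and 106% (Axl) of the vehicle rise in the mean of the Anakinra mice, with a median over the genes of 88.9%.

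PLX3397+Anakinra was compared with vehicle to see both drugs together. All 10 genes fell (10 of 10 called, where 9.6% of all genes were called lower). The values of the 2 groups did not overlap in 6 genes, Spp1, Gpnmb, Lgals3, Clec7a, Cst7 and Cd68 (6.62% of all genes were lower without overlap). The median log2 fold change was -1.09, beside 0.01 over all genes. The count stayed at 10 whichever mouse was left out. Under the additional limits of a ratio above 2 and a difference above 4 TPM at unadjusted p below 0.05, which the study's volcano plots use, 5 of the 10 remained (1.55% of all genes lower): Spp1, Gpnmb, Lgals3, Clec7a and Cd68.

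Spp1 measured 1318, 1129, 802, 844 and 850.1 TPM with the combination, and each of these mice was below the lowest vehicle mouse at 1962 TPM. It fell most of the 10, by 1.87 on the log2 scale (standard error 0.20, adjusted p = 1.75e-07), and its mean was 3.78-fold lower. Gpnmb measured 109, 97.5, 91.9, 84.6 and 66.6 TPM. It fell by 1.69 on the log2 scale (standard error 0.19, adjusted p = 2.75e-07). Clec7a measured 15.6, 14.4, 8.86, 11 and 8.3 TPM (log2 fold change -1.57, adjusted p = 1.62e-08). Cd68 measured 136, 139, 109.5, 108 and 96.6 TPM (log2 fold change -1.27, adjusted p = 1.81e-08). In all of these every treated mouse was below every vehicle mouse.

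Lgals3 fell to 55.3 ± 6.99 TPM and Cst7 to 22.9 ± 5.82 TPM (SD, n = 5 each), log2 fold changes of -1.31 and -0.91. The smallest decreases were those of the 3 genes with the highest level in sham mice. Axl fell by 0.22 on the log2 scale (adjusted p = 0.00366), Fabp5 by 0.41 (adjusted p = 0.0068) and Cd63 by 0.55 (adjusted p = 0.00142). Itgax fell by 0.83 to 3.52 ± 1.04 TPM (SD, n = 5, adjusted p = 0.00137). Its mouse J04 at 4.94 TPM overlapped with vehicle mouse J17B at 4.76 TPM.

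**Figure D2:**
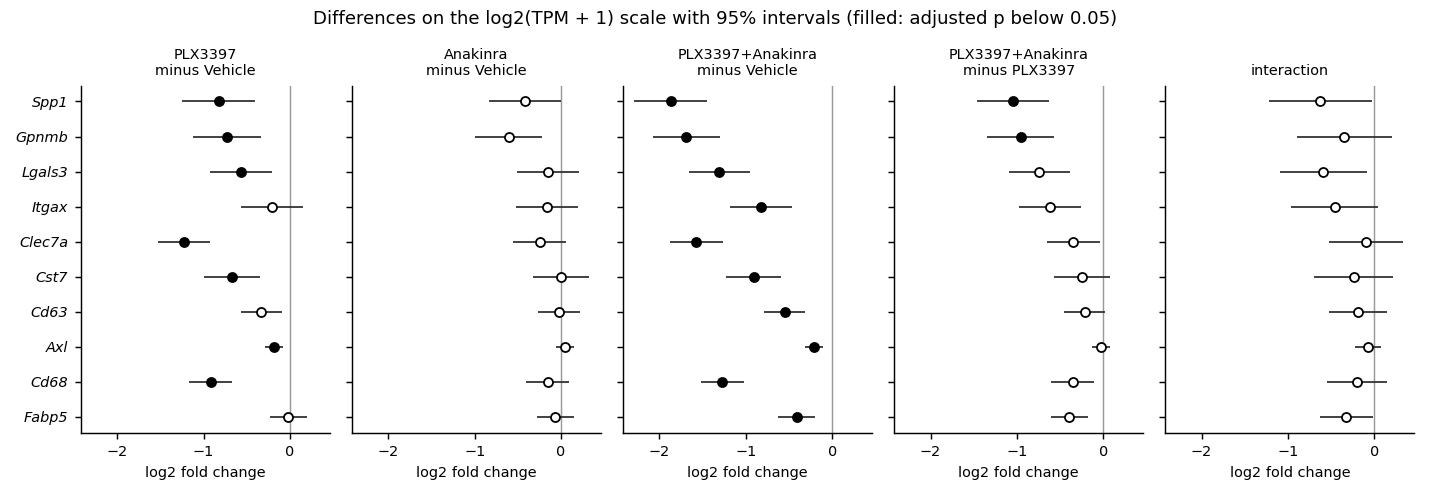
Log2 fold change on the log2(TPM + 1) scale (x axis) of each of the 10 genes in 4 drug comparisons and in the interaction, with 95% intervals as lines and filled points for an adjusted p below 0.05 in limma. There are 7 filled points for PLX3397 against vehicle, 0 for Anakinra, 10 for PLX3397+Anakinra, 2 for PLX3397+Anakinra against PLX3397 and 0 for the interaction.

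Did adding Anakinra to PLX3397 matter for these genes? All 10 means were lower with PLX3397+Anakinra than with PLX3397, and 2 genes were called, Spp1 and Gpnmb (0.145% of all genes were called lower, and 0.00579% higher). At unadjusted p below 0.05 there were 7 (3.78% of all genes lower). The values did not overlap in 3, Spp1, Gpnmb and Lgals3 (0.764% of all genes). On the log2 scale Spp1 fell by 1.04 (standard error 0.20, adjusted p = 0.029) and Gpnmb by 0.96 (standard error 0.19, adjusted p = 0.0305). Lgals3 measured 64.7, 59.5, 49.9, 55 and 47.5 TPM with the combination and 65.9, 116, 94, 85.3 and 110.4 TPM with PLX3397. The highest combination mouse was just below the lowest PLX3397 mouse. The lowest PLX3397 mouse had 1546 TPM of Spp1 and 136 TPM of Gpnmb, and the highest combination mouse 1318 and 109 TPM.

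Both calls were lost, and the count fell to 0, without PLX3397 mouse J02, J12 or J20 or without combination mouse J09, J10 or J17, with adjusted p of Spp1 between 0.0559 and 0.149 and of Gpnmb between 0.0769 and 0.162. The count was 4 without PLX3397 mouse J01, the lowest of its group in 8 genes, and 3 without vehicle mouse J17B. Lgals3 (log2 fold change -0.74, adjusted p = 0.101) passed in both of these cases (adjusted p = 0.0229 and 0.0251), and Fabp5 (-0.39, adjusted p = 0.152) in the first (adjusted p = 0.038). In the exact two-sided permutation test, one gene at a time, Spp1, Gpnmb and Lgals3 reached p = 0.00794, the smallest that 5 against 5 mice allow. Clec7a (-0.35, interval -0.65 to -0.04), Cst7 (-0.24, interval -0.57 to 0.08) and Axl (-0.03, interval -0.13 to 0.08) did not pass in limma.

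Against Anakinra alone, PLX3397+Anakinra lowered all 10 genes (10 of 10 called, 8.1% of all genes called lower), 8 of them without overlap (7.26% of all genes). The log2 fold changes ran from -1.45 for Spp1 to -0.26 for Axl. Fabp5 (-0.34, adjusted p = 0.0302) lost the call without Anakinra mouse J05 (adjusted p = 0.0853) or J21 (0.0838) or combination mouse J09 (0.0962), J10 (0.0562) or J17 (0.0736), and without the filter on low values (0.0605). Between the single drugs, PLX3397 was lower than Anakinra in 4 genes, Clec7a, Cd68, Cst7 and Axl (5.41% of all genes called lower). Their log2 fold changes were -0.98, -0.77, -0.66 and -0.23. Cst7 did not pass with 0.1 in place of 1 TPM added before logs (adjusted p = 0.0536).

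The interaction asks whether the 2 drugs add up on the log2 scale. It is the difference between PLX3397+Anakinra and PLX3397 minus the difference between Anakinra and vehicle. It was called by limma in 0 of the 10 genes (0% of all genes), and 3 had an unadjusted p below 0.05 (4.22% of all genes with a negative sign). These were Lgals3 (-0.59, interval -1.10 to -0.08), Spp1 (-0.63, interval -1.22 to -0.03) and Fabp5 (-0.32, interval -0.63 to -0.02), with adjusted p of 0.557, 0.586 and 0.584. All 10 point estimates were negative, from -0.63 to -0.07. The genes were measured in the same mice and are not independent of one another.

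In the order of group means, sham mice were lowest throughout and PLX3397+Anakinra was next in all 10 genes. Vehicle and Anakinra, neighbours at the top in 9 genes, were called different in 0 of them (1 at unadjusted p below 0.05). Anakinra and PLX3397 were separated as neighbours in Clec7a, Cst7 and Cd68, and PLX3397 and PLX3397+Anakinra in Spp1 and Gpnmb. The exceptions to the order were Axl, whose mean was highest with Anakinra (61.6 ± 2.61 TPM, SD, n = 5), and Fabp5, whose mean with PLX3397 (613 ± 73.2 TPM) was above that with Anakinra (589.9 ± 55.2 TPM). Neither of these 2 reversals was called (adjusted p = 0.758 and 0.834). In Fabp5 the neighbours Anakinra and PLX3397+Anakinra (466 ± 55.7 TPM) differed.

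How much of the injury response each group retained was described as the share of the vehicle rise kept, (TPM minus sham mean) over (vehicle mean minus sham mean). No test was made on it, since all groups share the same vehicle and sham means. PLX3397 kept 40.6% (Clec7a) to 97.5% (Fabp5), with a median over the genes of 64.3%. PLX3397+Anakinra kept 26.1% ± 6.06 of the rise of Spp1, 29.9% ± 5.41 of that of Gpnmb and 31.4% ± 9.22 of that of Clec7a (SD, n = 5). At the other end it kept 60% ± 14.3 of the rise of Fabp5 and 70.9% ± 11.6 of that of Axl, and its median was 43.4%. The share with PLX3397 was 40.6% ± 9.67 for Clec7a and 54.8% ± 14.8 for Spp1. All these shares are on the TPM scale. On the log2 scale Spp1 stood 5.71 above sham with the combination and 7.58 with vehicle. For Axl these values were 0.72 and 0.94. The wide gap between the shares of Spp1 and Axl thus depends on the scale.

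**Figure D3:**
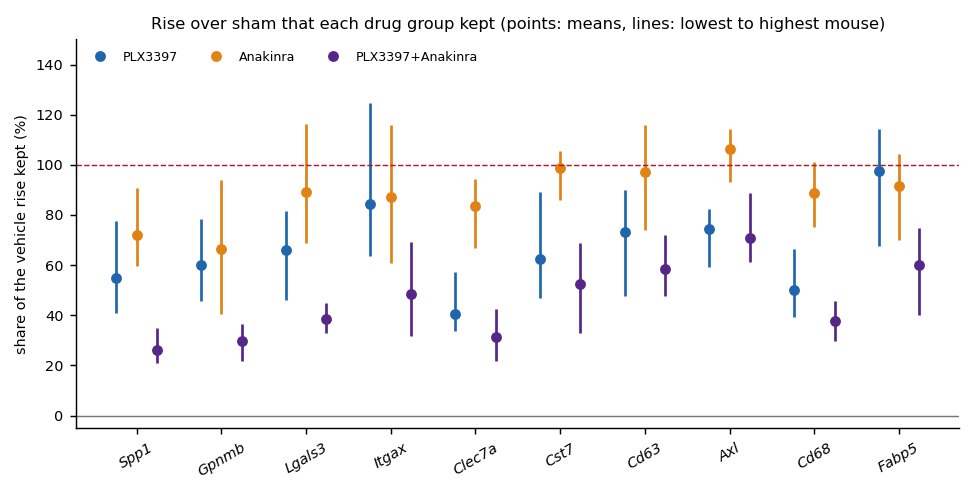
Share of the vehicle rise over sham that was kept, in percent (y axis), for each of the 10 genes in the PLX3397, Anakinra and PLX3397+Anakinra groups, with points for means of 5 mice and lines from the lowest to the highest mouse. The dashed line at 100 is the vehicle mean and 0 the sham mean, and the PLX3397+Anakinra means lie between 26.1% and 70.9%.

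The partners of these genes were read beside them, as 25 genes of receptors, ligands, substrates and regulators. After injury 22 rose and 1 fell (26.6% and 27.7% of all genes tested). PLX3397 lowered 13 and raised 0 against vehicle (6.66% and 3.23% of all genes). Anakinra changed 0 by limma (0.116% of all genes), with 4 at unadjusted p below 0.05. PLX3397+Anakinra lowered 19 and raised 1 against vehicle (9.6% and 7.88% of all genes). The medians of the list in these 4 comparisons were 1.09, -0.24, -0.04 and -0.37 on the log2 scale, beside -0.01, 0.01, -0.02 and 0.01 over all genes tested.

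Among receptors of osteopontin, Cd44 rose from 1.44 ± 0.0939 to 21 ± 3.65 TPM after injury, and fell with the combination (log2 fold change -0.40, adjusted p = 0.016) and not detectably with PLX3397 (-0.24, adjusted p = 0.22). Itgb5, an integrin chain of microglia, fell with PLX3397 from 160 ± 18.5 to 83.9 ± 13 TPM (SD, n = 5 each) and was 82.5 ± 8.31 TPM with the combination. Itgb1 rose after injury (1.09) and did not pass in the 3 comparisons of a drug group with vehicle. Of the integrin partner of Itgax, Itgb2 (CD18), 59.5 ± 10.5 TPM were measured with vehicle, 28.7 ± 6.34 with PLX3397, 58.8 ± 3.16 with Anakinra and 20 ± 3.11 with the combination. Itgb2 fell with PLX3397 by 1.03 on the log2 scale (adjusted p = 1.4e-06), where Itgax at -0.21 did not pass.

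Genes through which dectin-1 signals also fell. Syk, the kinase it recruits, Plcg2, the phospholipase downstream, and the adaptor Card9 fell with PLX3397 by 1.01, 0.98 and 0.89 on the log2 scale. With the combination they fell by 1.36, 1.11 and 1.03. The pan-myeloid genes described below had medians of -1.16 and -1.55 in these comparisons. Decreases of this size were thus not particular to genes of dectin-1 signalling. Bcl10 and Malt1, which complete the complex with CARD9, did not pass with PLX3397 (-0.20 and -0.14) and fell with the combination by 0.29 and 0.21. Beside Axl, its ligand Gas6 fell from 185 ± 14.1 to 146 ± 12.5 TPM with PLX3397, and Pros1, the ligand of its relatives, from 45.1 ± 7.09 to 33.4 ± 4.37 TPM. The related receptor Mertk fell from 43.7 ± 3.08 to 30.5 ± 1.37 TPM, whereas Tyro3, the neuronal member, fell after injury by 0.47 and was higher with the combination by 0.20 (adjusted p = 0.043).

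The proteases that cystatin F acts on, cathepsin C (Ctsc) and cathepsin H (Ctsh), fell with PLX3397 by 0.79 and 0.71 and with the combination by 1.00 and 1.28. Timp1, which encodes an inhibitor of metalloproteinases that binds CD63, rose from 0.564 ± 0.117 TPM in sham mice to 40.6 ± 18.4 TPM in vehicle mice. Its means were higher than vehicle in the 3 drug groups (58.1 ± 22.6, 65.6 ± 11.5 and 51.3 ± 4.42 TPM with PLX3397, Anakinra and both), and none of these differences passed. Lgals3bp, which binds galectin-3, fell with PLX3397 by 0.39 and with the combination by 0.58. Fabp7, a relative of Fabp5 in astrocytes and progenitors, rose from 35.9 ± 6.18 to 319 ± 48.8 TPM after injury and fell with PLX3397 by 0.42 (adjusted p = 0.018), where Fabp5 did not. The regulators of lysosomal genes Mitf, Tfeb and Tfe3 rose after injury by 0.50, 0.66 and 0.16. Of these, Tfe3 was called with the combination (-0.18, adjusted p = 0.032).

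Of 30 further DAM genes, injury raised 26 and lowered 2. PLX3397 lowered 22, Anakinra 0 (3 at unadjusted p below 0.05), the combination 24 against vehicle and 1 against PLX3397, and 0 rose by limma in any of these 4. The list medians were 2.10, -0.60, -0.06, -0.87 and -0.21 in this order. Lyz2, the gene of lysozyme, stood out by size: 17.1 TPM in sham, 2072 in vehicle, 974 with PLX3397 and 378 with PLX3397+Anakinra mice on average, and it was the gene of the list that fell between PLX3397 and the combination (log2 fold change -1.34, adjusted p = 0.00066). With PLX3397 the largest decreases were those of Ch25h (-1.31), which makes an oxysterol, Ccl6 (-1.20), a chemokine gene, Lyz2 (-1.08) and Cd52 (-1.05).

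Of 18 genes of lipid handling, injury raised 12 and lowered 4, PLX3397 lowered 8 and raised 2, and the combination lowered 10 and raised 2. Of all genes tested, injury raised 26.6% and lowered 27.7%, PLX3397 lowered 6.66% and raised 3.23%, and the combination lowered 9.6% and raised 7.88%. The list medians were 0.66, -0.21 and -0.27 on the log2 scale, beside -0.01, 0.01 and 0.01 over all genes. The scavenger receptors Msr1 and Cd36 and the row named Plin2_2 of the lipid droplet protein perilipin 2 rose after injury by 3.49, 4.06 and 4.58. They fell with PLX3397 by 1.22, 0.87 and 0.86 and with the combination by 1.64, 1.71 and 1.38. Fabp3, a fatty acid carrier of muscle and neurons, rose by 0.27 with PLX3397 and had fallen after injury (-0.55).

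Of 20 lysosomal genes, injury raised 15 and lowered 4, PLX3397 lowered 12, and the combination lowered 14 and raised 2. The list medians were 0.96, -0.24 and -0.35 on the log2 scale. Ctss, the gene of cathepsin S, and Grn, the gene of progranulin, fell with PLX3397 by 1.02 each. Ctss was also the lysosomal gene that fell between PLX3397 and the combination (-0.59, adjusted p = 0.014). Ctsk, cathepsin K, rose with Anakinra (log2 fold change 1.29, adjusted p = 0.046), the single gene called with Anakinra among the further DAM, lipid, lysosome and partner lists. Of 3 subunits of the proton pump, Atp6v0d1 and Atp6v1a fell after injury by 0.24 each, whereas Atp6v0d2 rose by 1.96 and fell with the combination by 1.10. Laptm5 stands on both this list and the pan-myeloid list.

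Other myeloid genes moved as well. Of 10 pan-myeloid genes such as Aif1 and Itgam, injury raised 9 and lowered 1 (log2 fold change -0.15). PLX3397 lowered 10 (median log2 fold change -1.16) and the combination 9 (-1.55). Their summed level was 237 to 266 TPM in sham, 864 to 1253 in vehicle, 476 to 691 with PLX3397, 981 to 1141 with Anakinra and 376 to 478 with PLX3397+Anakinra. All 8 genes of resting microglia rose after injury and fell with PLX3397 (median -1.35) and with the combination (-1.43), and between these groups 0 were called by limma, with 0 at unadjusted p below 0.05. Their summed level was 495 to 757 TPM with PLX3397 and 454 to 609.5 TPM with PLX3397+Anakinra.

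Of 8 genes of border macrophages, PLX3397 lowered 7 and the combination 7 against vehicle, and 3 fell between PLX3397 and the combination: Pf4 (-1.88), F13a1 (-1.50) and Ms4a7 (-1.25). The summed level was 86 to 171 TPM with vehicle, 38.4 to 74.7 with PLX3397, 83.7 to 119 with Anakinra, 16.9 to 25 with PLX3397+Anakinra and 12.6 to 15.6 in sham mice. Against sham mice, 4 of the 8 genes were called higher and 4 lower with the combination, so the sum hides both directions. None of the 8 genes was at 0 throughout a group. The other 5, Cd163, Lyve1, Mrc1, Folr2 and Cbr2, did not pass between PLX3397 and the combination, with log2 differences from -0.42 (Cbr2) to 0.11 (Lyve1), and the median of the list was -0.33. Pf4, F13a1 and Ms4a7 thus fell in the same comparison as Spp1 and Gpnmb, and their part in that result was not tested.

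**Figure D4:**
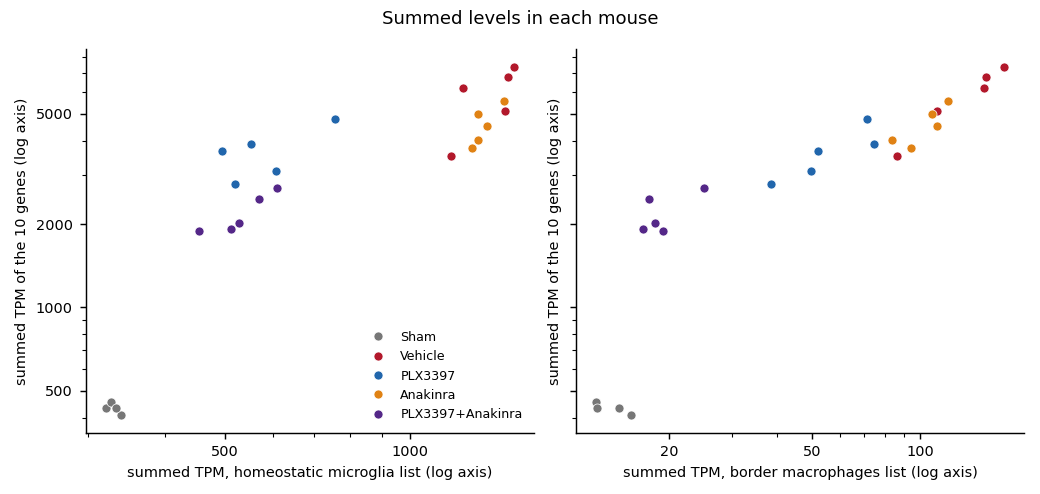
Summed TPM of the 10 genes in each mouse (y axis, log) against the summed TPM of 8 genes of resting microglia (left, log axis) and of 8 genes of border macrophages (right, log axis), with 1 point for each of the 24 mice, coloured by group. On the left the PLX3397 (495 to 757 TPM) and PLX3397+Anakinra mice (454 to 609.5 TPM) overlap along the x axis, and on the right they do not (38.4 to 74.7 against 16.9 to 25 TPM).

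To set the 10 genes beside other myeloid genes, each was taken relative to the 10 pan-myeloid genes in the same library. The reference was the mean log2(TPM + 1) of these pan-myeloid genes, and it includes the gene that fell after injury. It is a description without a test. From sham to vehicle, Spp1 gained 5.04 on this scale, Gpnmb 3.63, Lgals3 3.23, Cst7 2.46, Clec7a 2.05 and Cd68 1.54. These 6 lay higher without overlap, as did 0.608% of all genes. The 1 TPM added before logs holds down the rises of Cst7 and Clec7a here too. Cd63, Axl and Fabp5 lay lower, by -0.43, -1.60 and -1.12, as did 98.3% of all genes without overlap.

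From vehicle to PLX3397 the differences were 0.12 for Cd68, -0.19 for Clec7a, 0.22 for Spp1, 0.31 for Gpnmb and 0.37 for Cst7. Itgax, Axl and Fabp5 gained 0.84, 0.86 and 1.02. The 6 genes that were higher without overlap stand beside 90.7% of all genes. From PLX3397 to PLX3397+Anakinra, Spp1 lost 0.69, Gpnmb 0.60 and Lgals3 0.38. These 3 lay lower without overlap, as did 0.104% of all genes, and for Cd68 and Clec7a the differences were 0.00 and 0.01. Axl lay 0.33 higher without overlap, as did 16% of all genes. The size depended on the reference. With resting microglia in its place, Spp1, Gpnmb and Lgals3 lay 1.00, 0.91 and 0.70 lower, Cd68 and Clec7a 0.31 and 0.30 lower, and Axl was at 0.01.

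**Figure D5:**
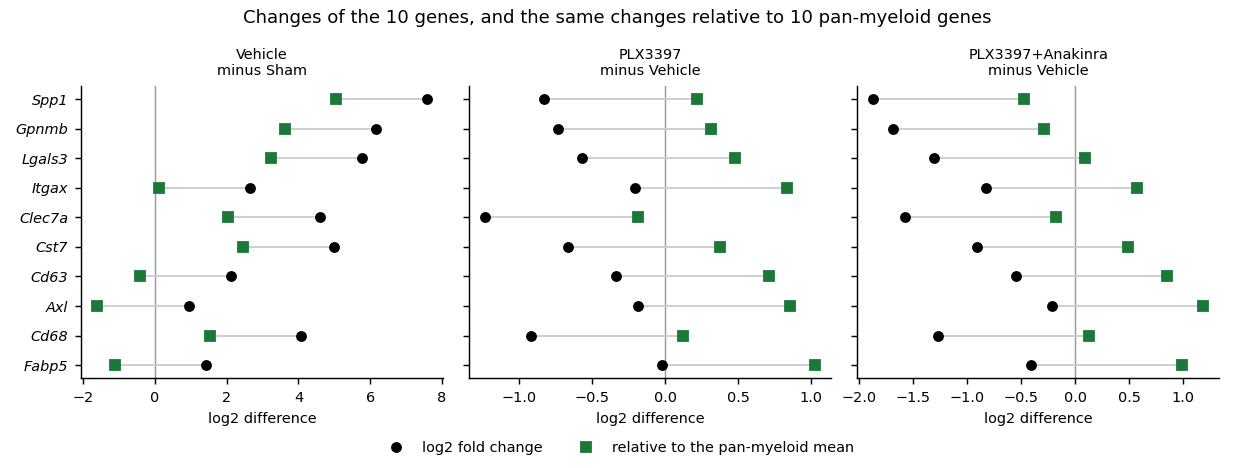
Log2 fold change of each of the 10 genes (black circles) and the same difference relative to the mean of 10 pan-myeloid genes in the same library (green squares), for vehicle against sham, PLX3397 against vehicle and PLX3397+Anakinra against vehicle (x axis: log2 difference, own scale per panel). Against vehicle the squares of Clec7a and Cd68 lie within 0.2 of 0 with PLX3397 and with the combination, and those of Axl and Fabp5 lie between 0.86 and 1.18.

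Genes of other cells moved with the groups too. Of 5 tested genes of monocytes and neutrophils, injury raised 5, PLX3397 lowered 1 (Ccr2, -0.84), and with the combination Ccr2 fell by 1.00 and Chil3 by 0.94. Their summed level spread widely, from 8.04 to 41.4 TPM with vehicle, 16.1 to 57 with PLX3397, 16.9 to 60.2 with Anakinra, 12 to 27.6 with the combination and 0.508 to 3.69 in sham mice. Plac8, Cxcr2 and Retnlg lay below the limit of 0.5 TPM. Of 4 tested genes of dendritic cells, injury raised 2 and lowered 2, and PLX3397 lowered 1 (Clec10a, -0.79).

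Of 8 fibroblast genes, injury raised 8, and against vehicle PLX3397 and the combination each raised 5 and lowered 1. With Anakinra 0 passed by limma at a median of 1.42 (7 at unadjusted p below 0.05). Their summed level was 85.8 to 103 TPM in sham, 168 to 876 in vehicle, 579 to 1353 with PLX3397, 955 to 1817 with Anakinra and 830.4 to 1418 with the combination. Injury lowered 8 of 8 neuronal genes (27.7% of all genes lower). PLX3397 raised 4 of them and the combination 5 against vehicle (3.23% and 7.88% of all genes higher). Injury raised 7 of 8 astrocytic, 7 of 8 oligodendrocytic and 6 of 8 endothelial genes (26.6% of all genes higher). In these 3 lists PLX3397 called at most 1 gene and the combination at most 2 against vehicle. The part of these cells in the results was not tested.

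The 10 genes varied together across mice. The correlation of each with the mean z-score of the other 9 ran from 0.965 (Fabp5) to 0.995 (Lgals3) over the 24 libraries, and from 0.812 (Fabp5) to 0.978 (Lgals3) over the 20 TBI libraries. These points share the 5 groups and a common library total, so the values are a description. Of 12514 other genes averaging 5 TPM or more, those most like the mean z-score of the 10 over all 24 libraries were Capg (r = 0.996), Plin2_2 (0.995), Cd9 (0.994), Lilrb4a (0.994) and Rab7b (0.991). Over the 20 TBI libraries they were Rab7b (0.979), Ctsb (0.979), Plin2_2 (0.977), Cd300c2 (0.977) and Slc37a2 (0.976).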

How the data were processed

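Poly(A) RNA of 24 mice was sequenced in paired-end mode. The authors trimmed and mapped the reads to mm10 (GRCm38) in CLC Genomics Workbench and deposited TPM for 36333 genes, which sum to 1000000 in each library. TPM hide the depth and make each gene depend on all others. The other deposited tables, rounded values and a filtered subset with p and F values of the authors' tests, were not used.

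Groups follow the treatment label of each mouse, and 0 columns were left unmapped. The 17267 genes averaging 0.5 TPM or more were tested on log2(TPM + 1) in limma 3.58.1 (R 4.3.3), in a joint model of the 24 libraries with a variance trend. A call is a Benjamini-Hochberg adjusted p below 0.05 over all genes tested. This replaces the t-tests and ANOVA of the methods. Single genes were also compared by exact two-sided permutation. The script was checked on simulated data for PLX3397 against vehicle, in 20 draws with 200 changed genes each. It found 95.35% of the 1.5-fold and 99% of the 2-fold changes. The changed genes averaged 5 TPM or more, so detection of lower genes was not checked. A mean of 51.2 unchanged genes per draw was also called. That is a larger share of the calls than the threshold of 0.05 aims at, so calls need care, most of all close to the threshold. Replicates are separate mice.

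The 10 genes and all lists were chosen with earlier results of these data known, so a list's direction is not independent evidence. All 10 genes are named, at most 4 called genes with the largest change per list and comparison, the partners of each gene, and 5 most similar genes by Pearson's r. Zeros stayed in all tests. Motifs were searched with Python 3.11.15. Alternatives covered pseudocount, filter, scaling, model, limits, replicate block and each mouse left out.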

Additional observations from a re-analysis of the deposited data

Results flagged for a closer look

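In 5 of the 50 combinations of gene and group, 1 mouse lay far from the others of its group by Dixon's ratio, the gap to the nearest mouse over the whole range of the group. Chance gives about 1 in 20. Vehicle mouse J17B was low in 3 of them. Its Gpnmb was 196 TPM against 296 to 332 TPM in the other 4 (ratio 0.737), its Axl 52.5 TPM against 60.5 to 62.2 TPM (ratio 0.819) and its Cd68 209 TPM against 294 to 321 TPM (ratio 0.762). Without it, 8 genes rather than 7 were called for PLX3397 against vehicle, and 3 rather than 2 for PLX3397+Anakinra against PLX3397. PLX3397 mouse J02 was high in Clec7a, with 20.7 TPM against 12.4 to 14.7 TPM (ratio 0.725). Sham mouse J08 was high in Cd68, with 17.8 TPM against 15.1 to 15.5 TPM (ratio 0.854).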

How the results depend on the processing

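The counts of genes called against sham stayed at 10 in all 4 TBI groups with each mouse left out. Under limits on unadjusted p, ratio and difference they were 9 with vehicle, 9 with PLX3397, 10 with Anakinra and 8 with both. The shares of all genes higher under these limits were 5.11%, 3.58%, 5.24% and 2.84% in this order. For PLX3397 against vehicle the count of 7 became 4 with only the compared groups in the model and 1 under the limits (0.932% of all genes lower). It was 6 with 0.1 TPM added, without the filter, without the variance trend and with robust moderation, where Lgals3 was lost, and 8 with the replicate block, where Cd63 was gained (adjusted p = 0.006). It ranged from 5 to 8 with a mouse left out. Under the limits the count for PLX3397+Anakinra was 5 against vehicle (1.55% of all genes lower) and 5 against Anakinra (1.55%). It was 1 for PLX3397 against Anakinra (0.724%). By adjusted p, the count of 10 for PLX3397+Anakinra against Anakinra was 9 without the filter and 9 with the replicate block. Fabp5 was lost in both (adjusted p = 0.0605 and 0.0563). For Anakinra against vehicle the exact permutation test called 1 (unadjusted) in place of 0. The count of 2 for PLX3397+Anakinra against PLX3397 was the least stable. It became 0 without a filter on low values, without the variance trend, with robust moderation and with the replicate block. It was 1 with only the compared groups and 1 under the limits (0.0927% of all genes lower). At unadjusted p below 0.05 the exact permutation test gave 6 and limma 7. By adjusted p the count ranged from 0 to 4 with a mouse left out. The cause was not tested. No gene called with the main settings or with an alternative reversed its direction between them. Small differences that were not called could change sign, such as that of Cst7 between Anakinra and vehicle without vehicle mouse J18B. The replicate block used the animal numbers that vehicle shares with PLX3397 or the combination. The correlations of deviations within the 4 pairs were 0.17, -0.13, -0.07 and 0.32. These values cannot tell whether the paired mice share more than a number. Rescaling by median ratios moved the median of all genes by at most 0.03 on the log2 scale. Of 60 pairs of a value relative to pan-myeloid genes and an alternative (pseudocount or reference), 25 moved by more than 1 SD, as did 16 of 60 pairs of a share kept and an alternative (rescaling or log2 scale). Depth is unknown, so low genes such as Itgax in sham mice carry an unknown counting error.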
